A study of Mus musculus with 24 samples.

Results

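RNA of freshly isolated brain endothelial cells was compared between wild-type mouse embryos of embryonic stage E15.5 and wild-type adult mice. Every library that the labels place in these groups was used, which is 3 per stage and 6 of the 24 libraries of the series. All animals carried 2 floxed Sox17 alleles, and those called wild type lacked the tamoxifen-inducible Cdh5(PAC)-CreERT2 transgene, whose vascular cadherin promoter drives Cre in endothelium. All were nonetheless exposed to tamoxifen: pregnant females received 2 intraperitoneal injections of 1 mg, at days 11.5 and 13.5 after conception, and adults received 4 injections of 1.5 mg from 6 weeks of age and were collected 1 week after the last. The remaining libraries are Cre-positive knockouts (Sox17iECKO) at E15.5, postnatal days 5 and 9 (P5, P9) and adult, and wild types at P5 and P9, pups having received 100 µg of tamoxifen. They enter here as a shared estimate of spread and as side values. Each stage is described by the labels as 3 independent biological replicates. CD45-positive cells were depleted with magnetic beads and CD31-positive cells were then selected, so the material is an enriched fraction and not a sorted population. One dissociation kit was used at E15.5 and P5 and another at P9 and in adults, so stage and kit cannot be told apart in the direct comparison.

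Brain capillaries form the blood-brain barrier. Their endothelial cells are sealed by tight junctions, carry out little vesicular transport, take up nutrients through dedicated carriers and expel drugs through ATP-driven pumps. In the embryo the same vessels are still sprouting into the neural tissue under vascular endothelial growth factor and Wnt signals, and their cells divide, whereas adult brain endothelium is largely quiescent.

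The 6 libraries held 12301779 to 15788644 counts over genes, with 20549 to 22010 genes having at least 1 count. Levels are given as counts per library total, after each total was multiplied by a scaling factor that matches the bulk of genes (TMM, 0.996 to 1.14) and set to 1000000 (CPM). On this scale a count of 0 allows up to 0.178 to 0.229 CPM for counting error alone. Across genes, log2 CPM correlated at Pearson's r 0.975 to 0.986 among the E15.5 libraries, 0.987 to 0.988 among the adult ones and 0.8 to 0.826 between stages. The E15.5 libraries also differed from each other in make-up. In library 2, Xist, the RNA that coats the inactive X chromosome, had 9 counts and the Y-linked Kdm5d had 1119, while libraries 1 and 3 had 18604 and 23273 counts of Xist and none of Kdm5d, like the adults. Library 3 had the lowest summed pericyte markers (726 CPM against 1680 and 2215), fibroblast markers (435 against 860 and 1244) and choroid plexus and ependymal markers (57.1 against 514 and 575).

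The cell type label was checked against markers. Endothelial identity genes were abundant at both stages, with all 20 of the list tested and a sum of 5030 to 6322 CPM at E15.5 and 11616 to 12626 CPM in adults. Markers of other cells moved with stage as well. Oligodendrocyte markers summed to 59.8 to 76.4 CPM at E15.5 and to 23453 to 28546 CPM in adults, where they exceeded the endothelial identity sum, and all 9 of 9 rose. Astrocyte markers summed to 239 to 307 and then 1914 to 2931 CPM, microglia and macrophage markers to 33.4 to 45.8 and then 178 to 407 CPM, and choroid plexus and ependymal markers to 57.1 to 575 and then 5551 to 6380 CPM. In the other direction, neuron markers summed to 1901 to 2479 CPM at E15.5 and 457 to 624 CPM in adults, red cell markers to 2859 to 3764 and then 1284 to 1486 CPM, and pericyte markers to 726 to 2215 and then 587 to 720 CPM. Ptprc, which encodes CD45, rose from 0.293, 1.09 and 0.295 CPM at E15.5 to 6.98, 3.9 and 2.08 CPM in adults, a log2 difference of 2.68 ± 0.45 (adjusted p = 4.8e-06). Its groups did not overlap, as for 73.1% of all genes tested. In such bulk libraries fewer cells of a type and less RNA per cell cannot be told apart.

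**Figure D1:**
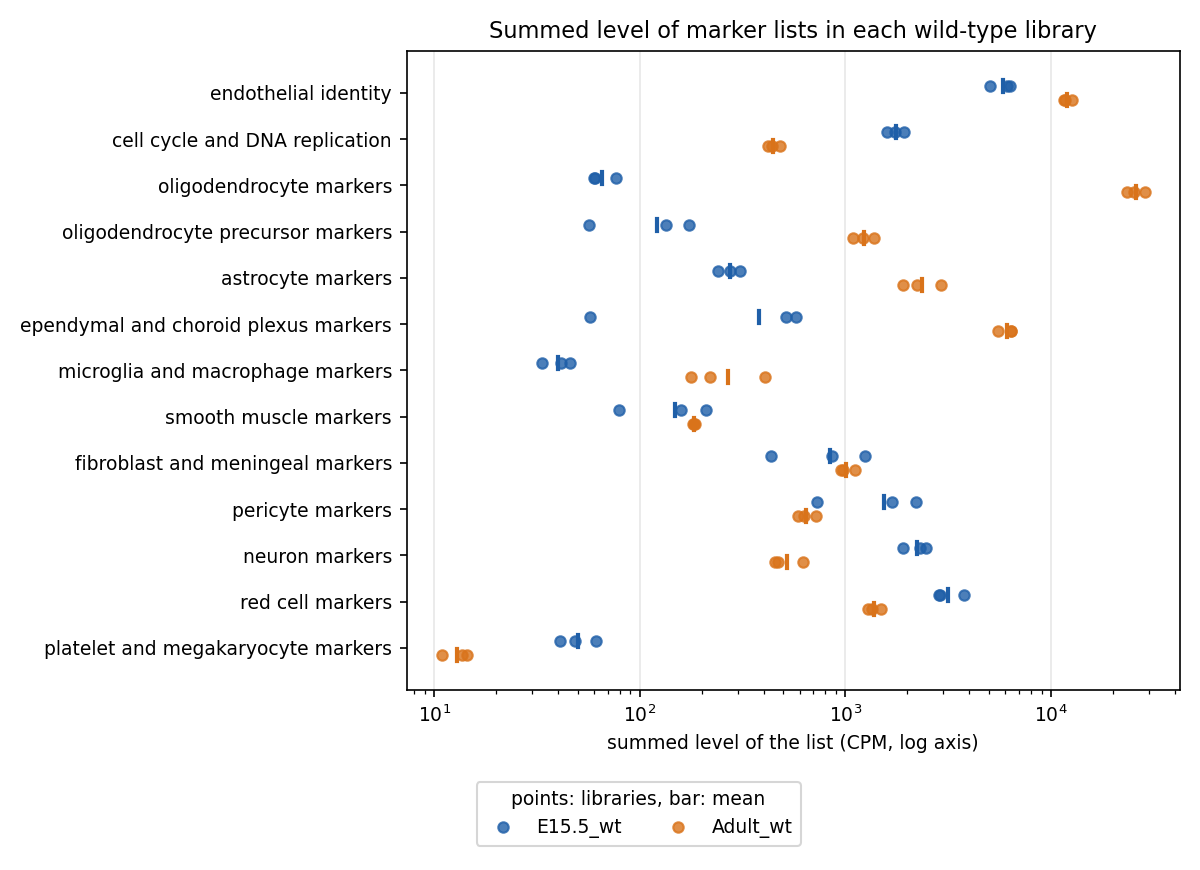
Summed CPM of marker lists and of cell cycle genes on a log axis, 1 point per library and a bar at the mean, for wild-type E15.5 and adult libraries. Oligodendrocyte markers stand at 59.8 to 76.4 CPM at E15.5 and at 23453 to 28546 CPM in adults, and endothelial identity genes at 5030 to 6322 and 11616 to 12626 CPM.

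The stages differed across most of the transcriptome. Of 17159 genes tested with edgeR's quasi-likelihood test, 11937 (69.6%) differed at a Benjamini-Hochberg adjusted p under 0.05, 6046 (35.2%) higher and 5891 (34.3%) lower in adults. Changes of at least 2-fold were called for 3664 higher and 3453 lower genes, and of at least 16-fold for 422 higher and 173 lower genes. This even split holds under scaling to the bulk of genes (TMM), which puts the median difference at 0.00. Scaling the libraries to the endothelial identity genes instead, which asks how much of a transcript there is per endothelial transcript, lowers differences by a median of 1.04 on the log2 scale. It left 2370 genes higher (13.8%) and 11511 lower (67.1%), that is 17.1% of calls higher in place of 50.6%. Under both scalings 2370 genes were higher and 5891 lower, and 1464 were called in opposite directions. Counts of rises and falls in the lists below stand against the shares of all genes, 35.2% and 34.3% under TMM. Under identity scaling these shares were 13.8% and 67.1%. All log2 differences below are adult minus E15.5 under TMM with approximate standard errors, and the value under identity scaling follows where it matters.

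**Figure D2:**
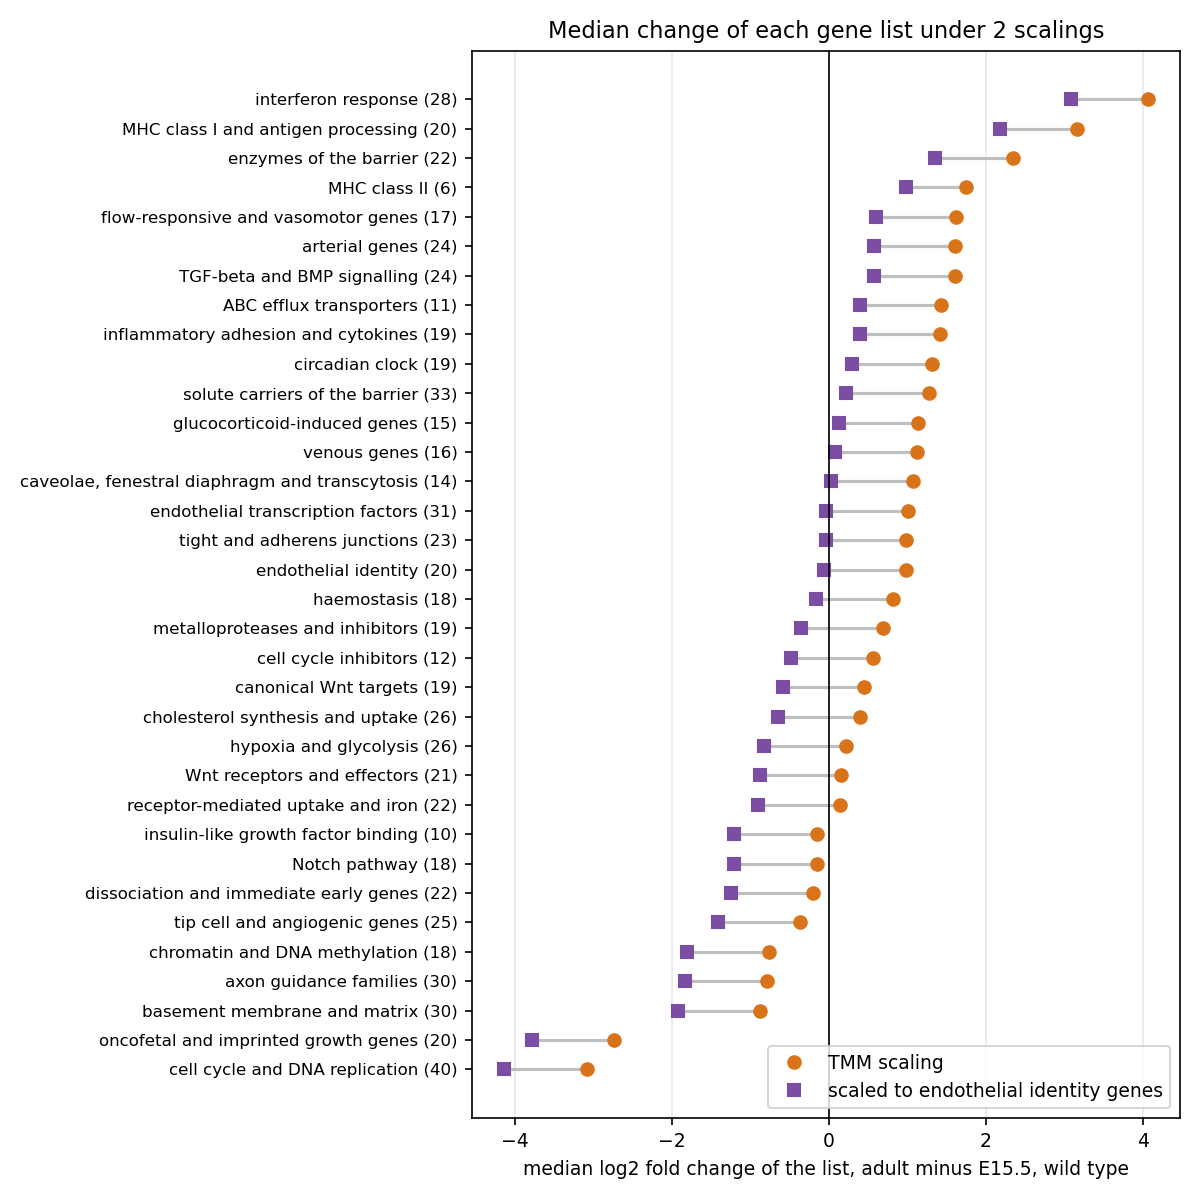
Median log2 difference, adult minus E15.5, of the gene lists described in the text, circles for TMM and squares for scaling to endothelial identity genes, and the number of genes tested in brackets. Interferon response genes (4.06 and 3.09) and cell cycle genes (-3.09 and -4.14) lie at the ends of the lists plotted. The junction list stands at 0.98 under TMM and at -0.04 under identity scaling.

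Cell division genes were low in the adult. Of 40 genes of the cell cycle and DNA replication, 38 fell and none rose, with a median log2 difference of -3.09, against 0.00 over all genes tested. Under identity scaling all 40 fell. Cdk1 (chromosome 10, 69336635 to 69352938, mm10), the kinase that drives entry into mitosis, stood at 50.2, 48.7 and 49.5 CPM at E15.5 and at 2.35, 1.64 and 1.73 CPM in adults, a log2 difference of -4.61 ± 0.15 (adjusted p = 3.1e-17). Top2a, the topoisomerase that untangles replicated chromosomes, stood at 129, 146 and 109 CPM and then at 10, 8.21 and 11.3 CPM (-3.69 ± 0.16, adjusted p = 4.1e-15). Mki67, the proliferation antigen Ki-67, stood at 123, 143 and 99.9 CPM and then at 11.6, 8.14 and 10.3 CPM (-3.59 ± 0.18). The stages did not overlap in any of these genes, as for 73.1% of all genes tested. Tpx2 and Cenpf, a spindle assembly factor and a kinetochore protein, fell by 3.53 and 3.32. Neuron, red cell and pericyte marker sums fell in the same libraries, and the part of other cells in these falls was not tested.

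Under TMM the decline of cell cycle transcripts lay after P9. Between E15.5 and P5, within 1 kit, the list's median difference was 0.51 (66.6% of all genes called), and between P9 and adult, within the other kit, it was -3.45 (61.1% called). Mean Cdk1 was 85.5 CPM at P5 and 89 CPM at P9, above its E15.5 level, and Top2a was at 179 and 180 CPM. Identity genes held 0.558, 0.719 and 0.657% of counts at E15.5 and 1.7, 1.76 and 1.63% at P5. Identity scaling would thus lower the step to P5, and step medians under it are not given here. Of 12 cell cycle inhibitors, 8 rose and 3 fell under TMM, while 2 rose and 7 fell under identity scaling. Cdkn2b, which encodes the CDK4 and CDK6 inhibitor p15, rose under both, from 1.54, 2.11 and 1.89 CPM to 16.5, 18.8 and 17.3 CPM (3.15 ± 0.18, or 2.18). Cdkn1c, the imprinted inhibitor p57, moved the opposite way and fell by 0.50.

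The promoters of Top2a, Cdk1, Mki67 and Cenpf are shown because genes of the G2 and M phases commonly carry a pair of short elements near the start site, the cell cycle homology region (CHR) and the CCAAT box bound by NF-Y. Each line gives the 150 bases before the RefSeq start (GRCm38.p6, the mm10 assembly), read 5′ to 3′ along the gene, with matches on either strand to the CHR (TTTGAA) or the CCAAT box (CCAAT) in capitals.
Top2a (chr11:99024190-99024339, minus strand): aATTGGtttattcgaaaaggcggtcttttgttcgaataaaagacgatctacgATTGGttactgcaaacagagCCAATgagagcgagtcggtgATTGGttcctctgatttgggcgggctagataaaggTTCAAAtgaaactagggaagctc
Cdk1 (chr10:69352913-69353062, minus strand): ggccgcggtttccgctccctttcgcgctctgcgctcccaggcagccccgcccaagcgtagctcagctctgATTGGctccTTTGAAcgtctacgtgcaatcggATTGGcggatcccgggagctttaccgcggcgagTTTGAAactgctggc
Mki67 (chr7:135716380-135716529, minus strand): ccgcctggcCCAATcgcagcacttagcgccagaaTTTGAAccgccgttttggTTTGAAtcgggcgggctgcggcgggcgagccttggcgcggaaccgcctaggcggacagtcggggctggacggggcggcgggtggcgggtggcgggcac
Cenpf (chr1:189688087-189688236, minus strand): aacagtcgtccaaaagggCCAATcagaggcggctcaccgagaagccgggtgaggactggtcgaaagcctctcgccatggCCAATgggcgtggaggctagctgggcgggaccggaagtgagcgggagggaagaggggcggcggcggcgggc
In the Top2a window the CHR begins 23 bases before the start, with CCAAT boxes at 149, 98, 78 and 58 bases. The Cdk1 window has CHR matches at 71 and 15 bases and CCAAT boxes at 80 and 48 bases. The Mki67 window has CHR matches at 116 and 98 bases and a CCAAT box at 141 bases, and the Cenpf window has CCAAT boxes at 132 and 71 bases and no match to TTTGAA. Over the 250 bases before the start, CCAAT was present in 27 of the 33 promoters of the 32 list genes with a RefSeq entry (81.8%), against 33.8% of all 32851 promoters. TTTGAA was present in 9 of 33 (27.3%), against 16% of all. These letter matches describe the windows and say nothing of binding.

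Fetal growth genes were also lower. Of 20 oncofetal and imprinted growth genes tested, 19 fell and none rose under either scaling, with a median of -2.74 (-3.79 under identity scaling). H19 (chromosome 7, 142575529 to 142578143), the imprinted noncoding RNA next to Igf2, stood at 192, 284 and 256 CPM at E15.5 and at 0.304, 0.342 and 0.416 CPM in adults, a log2 difference of -8.99 ± 0.36 (adjusted p = 3.9e-16). Igf2bp1, an RNA-binding protein of fetal tissues, had 3671 counts in the 3 E15.5 libraries and 3 in the adult ones, a ratio of 1093 with a 95% counting interval of 374 to 5302. Its relative Igf2bp3 had 1862 and 3 counts (ratio 554, interval 189 to 2691), and Igf2bp2 fell by 5.63 ± 0.23. Mest, an imprinted gene of growing tissues, stood at 555, 576 and 678 CPM and then at 21.2, 23.5 and 20.7 CPM (-4.78 ± 0.20). Igf2 itself was more variable, at 493, 633 and 246 CPM and then 131, 117 and 139 CPM (-1.83 ± 0.31, adjusted p = 1.8e-05), with library 3, which was low in fibroblast markers, the lowest at E15.5. Igf2 is also on the fibroblast list, and the part of those cells in its fall was not tested.

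This group had negative medians at both steps within a kit, -1.33 from E15.5 to P5 and -1.44 from P9 to adult. H19 averaged 14.6 CPM at P5 and 12 CPM at P9. Of 10 insulin-like growth factor receptors and binding proteins, 3 rose and 4 fell, and 8 fell and none rose under identity scaling. Igfbp4 was the most changed of them, at 255, 311 and 300 CPM and then at 19, 21 and 25.7 CPM (-3.71 ± 0.16), after means of 665 and 548 CPM at P5 and P9.

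**Figure D3:**
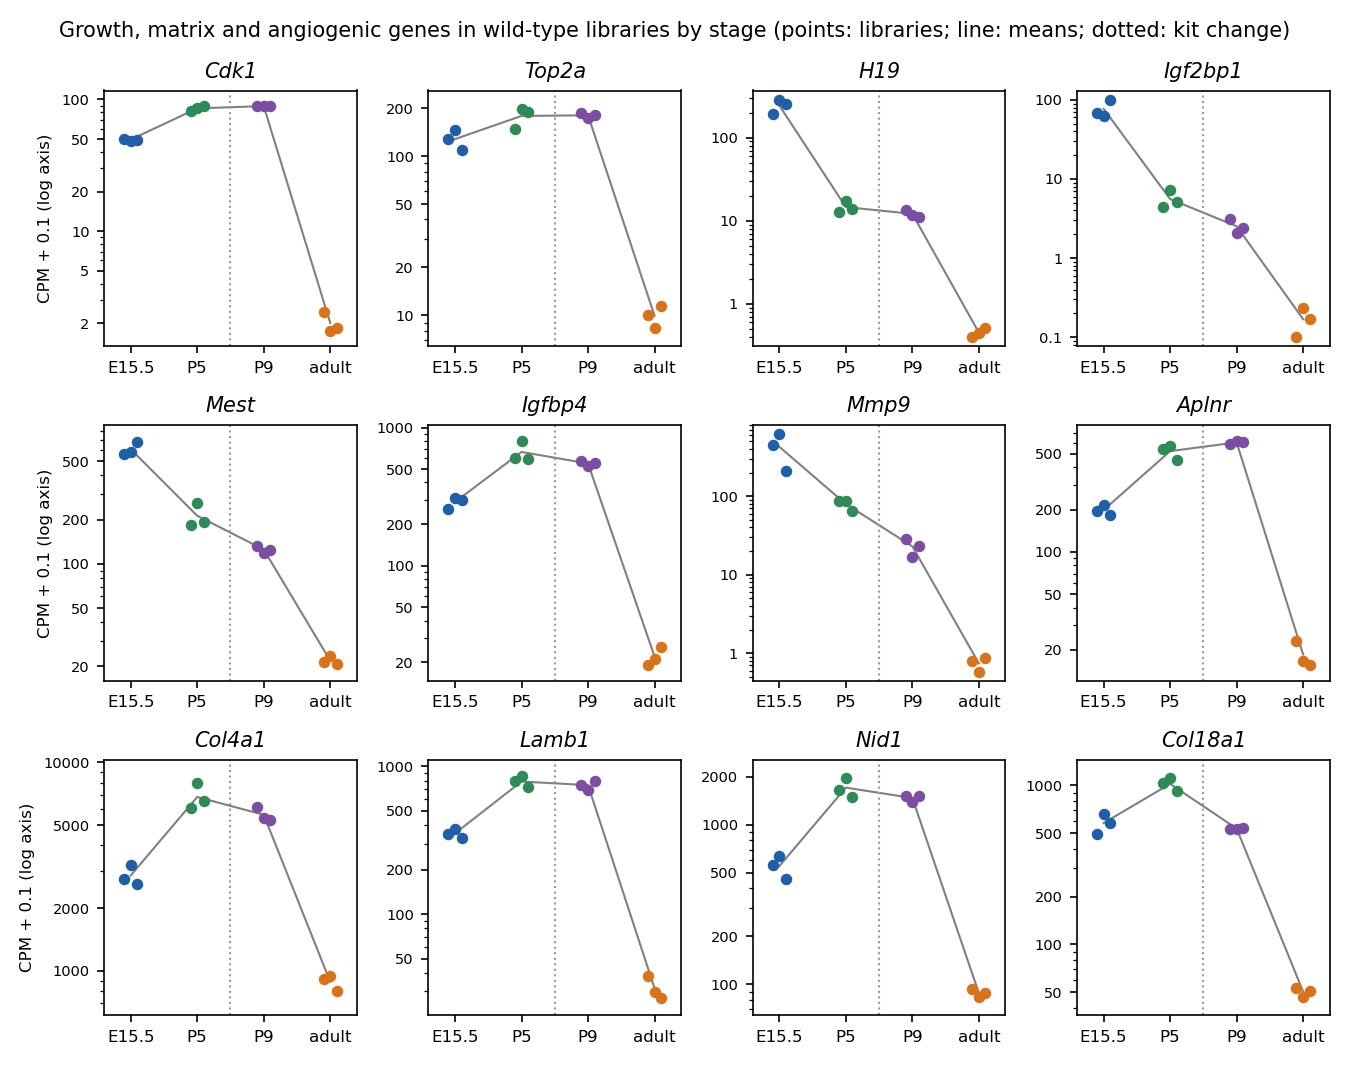
CPM + 0.1 on a log axis by wild-type stage (E15.5, P5, P9, adult) for 12 genes that fell between E15.5 and adult, 1 point per library, a line through the means and a dotted line at the change of kit. Cdk1, Top2a, Igfbp4, Aplnr, Lamb1 and Nid1 peak at P5 or P9 before they fall, whereas H19, Igf2bp1, Mest and Mmp9 decline from E15.5 on.

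Carriers of the barrier were higher in the adult more often than lower. Of 33 solute carriers of the barrier, 21 rose and 9 fell, with a median of 1.27, and 17 rose and 12 fell under identity scaling. Slco1a4 (chromosome 6, 141805440 to 141856199), an organic anion transporter of brain capillaries, went from 2.05, 2.29 and 1.12 CPM to 1647, 1419 and 1335 CPM, a log2 difference of 9.57 ± 0.33 (adjusted p = 5.2e-17). The adult mean was 805 times the E15.5 mean, and 270 CPM had been reached by P5. Slco1c1, the thyroxine transporter, was well expressed in the embryo, at 170, 240 and 217 CPM, and stood at 1451, 1459 and 1441 CPM in adults (2.79 ± 0.13). Slc19a3, a thiamine transporter, went from 5.64, 10.1 and 9.9 CPM to 164, 142 and 142 CPM (4.09 ± 0.16). All of these rises held under identity scaling.

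Some carriers were highest after birth. Slc16a1, the monocarboxylate transporter that takes up lactate and ketone bodies, averaged 19.9 ± 5.75 CPM (SD, n = 3) at E15.5, 2949 CPM at P5, 3840 CPM at P9 and 508 ± 56 CPM in adults, so that its adult minus E15.5 difference of 4.66 ± 0.20 combines a step of 7.20 to P5 with one of -2.92 from P9. Mfsd2a, the lysolipid carrier that limits transcytosis, had 321, 395 and 371 CPM at E15.5 and 456, 443 and 404 CPM in adults. Its groups did not overlap, as for 73.1% of all genes tested. The difference of 0.26 ± 0.14 was not called (adjusted p = 0.094) and was -0.78 under identity scaling. P5 and P9 averaged 1284 and 1441 CPM. Slc2a1, the glucose transporter GLUT1, stood at 839, 957 and 931 CPM and then at 2090, 1992 and 1964 CPM (1.15 ± 0.12, adjusted p = 2.1e-08), against 0.10 under identity scaling (adjusted p = 0.32). Per transcript length, in the deposited TPM, which divide by gene length before scaling, Slc2a1 led these carriers at both stages with means of 1035 and 1996 TPM. At E15.5 Mfsd2a followed at 643 TPM and Slco1a4 was last at 1.89 TPM, while in adults Slco1c1 (1584 TPM) and Slco1a4 (1324 TPM) came next.

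Efflux pumps and metabolising enzymes followed. Of 11 ABC transporters tested, 8 rose and 1 fell (6 and 4 under identity scaling). Abcb1a (chromosome 5, 8660077 to 8748575), which encodes P-glycoprotein, stood at 84.9, 118 and 114 CPM and then at 1286, 1153 and 1124 CPM (3.49 ± 0.13, adjusted p = 1.6e-16). Abcc4 and Abcc6, pumps of organic anions, rose by 2.94 and 3.23, and Abcg2, the breast cancer resistance protein, by 1.43 ± 0.11. In TPM Abcb1a and Abcg2 were alike at E15.5, at 76.9 ± 12.7 and 76.5 ± 11.1 (SD, n = 3), and stood at 753 ± 69.6 and 179 ± 16.6 in adults. Of 22 barrier enzymes, 16 rose and 1 fell, with 16 higher and 3 lower under identity scaling and a median of 2.34. Cyp2d22, a cytochrome P450, went from 5.57, 7.79 and 6.66 CPM to 222, 198 and 215 CPM (4.95 ± 0.12, adjusted p = 5.9e-19). Gstm1 and Gsta4, glutathione transferases, rose by 3.98 and 5.85, and Ephx1, the microsomal epoxide hydrolase, by 4.86. Gstm1 and Ephx1 are also made by astrocytes, whose markers rose in the same libraries, and the part of those cells in these rises was not tested.

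Junction genes were mostly higher relative to all genes and evenly split relative to endothelial identity genes. Of 23 tight and adherens junction genes, 17 rose and 2 fell, whereas 7 rose and 8 fell under identity scaling. Of all genes, 13.8% were higher and 67.1% lower under that scaling. Cdh5, Pecam1 and Esam of the junction list also help to set it. Cldn5 (chromosome 16, 18776847 to 18778260), the main claudin of the barrier, stood at 1389, 1413 and 1225 CPM at E15.5 and at 3906, 4254 and 3818 CPM in adults (1.57 ± 0.14, adjusted p = 4.5e-10, and 0.52 under identity scaling). Per length it was the most abundant of the claudins compared, with means of 3792 and 9804 TPM, against 9.43 and 17.2 TPM for Cldn12, 7.88 and 6.72 TPM for Cldn3 and 3.11 and 7.22 TPM for Cldn1. Ocln, the tight junction protein occludin, went from 26.7, 41.1 and 36.5 CPM to 182, 195 and 190 CPM (2.44 ± 0.15). Jcad, a junctional protein, rose by 2.70 ± 0.14, Jam2, a junctional adhesion molecule, by 2.20 ± 0.12, and Cgnl1, paracingulin, by 1.67 ± 0.11, all of them under both scalings.

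Vesicle and uptake genes were mixed. Of 14 caveolar, diaphragm and transcytosis genes, 9 rose and 3 fell (5 and 6 under identity scaling). Plvap, the diaphragm protein of fenestrated and immature vessels, stood at 56.3, 48.2 and 79.3 CPM and then at 28.5, 11.8 and 12.4 CPM (-1.80 ± 0.31, adjusted p = 2.1e-05). The sum of its steps within a kit (E15.5 to P5 and P9 to adult) was -0.21 and not called (adjusted p = 0.73). Cav1, caveolin, and Sdpr, the caveolar coat protein cavin 2, went the other way, by 1.96 ± 0.17 and 3.08 ± 0.14. Of 22 genes of receptor-mediated uptake and iron handling, 9 rose and 4 fell, and under identity scaling 4 rose and 12 fell. Tfrc, the transferrin receptor, had 245, 337 and 362 CPM at E15.5 and 359, 356 and 324 CPM in adults, overlapping groups with a difference of 0.14 ± 0.14 (adjusted p = 0.41, and -0.89 under identity scaling). Its means at P5 and P9 were 1761 and 2058 CPM. Lrp8, a receptor of apolipoprotein E and reelin, fell by 1.52 ± 0.10, and Fcgrt, the neonatal Fc receptor, rose by 3.33 ± 0.20. Trf, which encodes transferrin and is strongly made by oligodendrocytes, rose by 4.86 ± 0.19, of which 3.57 lay between P9 and adult, when the oligodendrocyte sum went from a mean of 1518 to 25781 CPM. The part of oligodendrocytes in the rise of Trf was not tested.

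**Figure D4:**
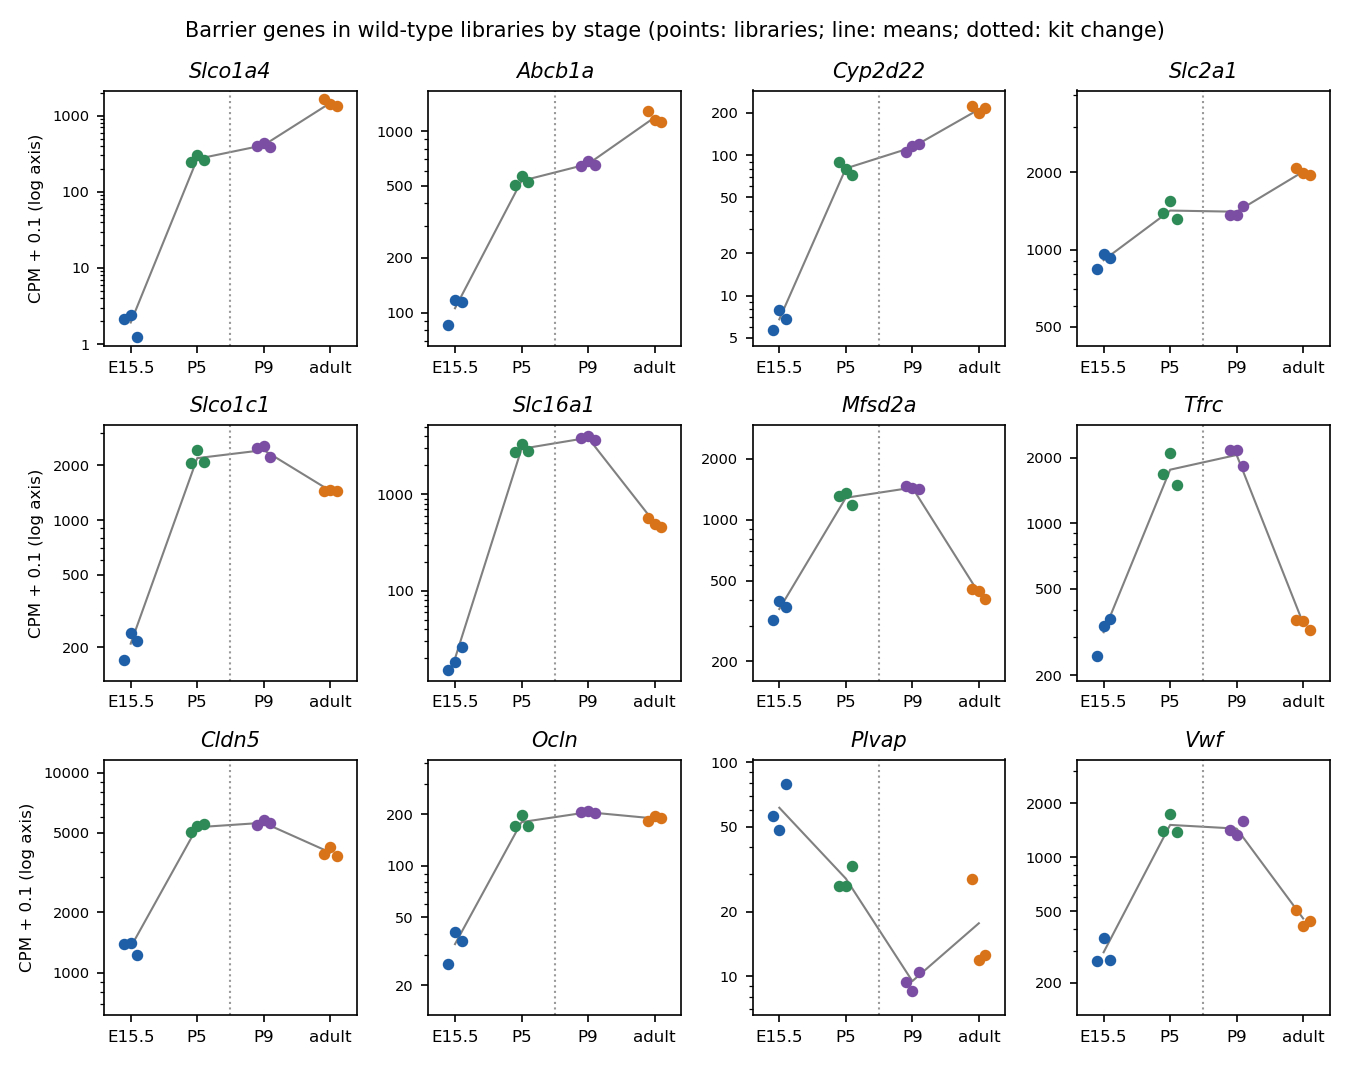
CPM + 0.1 on a log axis by wild-type stage for 12 barrier genes, 1 point per library, a line through the means and a dotted line at the change of kit. Slco1a4, Abcb1a and Cyp2d22 climb through to the adult, Slc16a1, Mfsd2a and Tfrc peak at P9 with means of 3840, 1441 and 2058 CPM, and Plvap declines from E15.5 to P9.

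General endothelial genes were also higher relative to all genes. Of the 20 identity genes, 16 rose and 1 fell under TMM, with a median of 0.98, and since they define the other scaling, their median of -0.06 there is not a result. Identity-scaled values of single members, given below, are relative to the list they belong to. Cdh5, vascular cadherin, stood at 442, 542 and 544 CPM and then at 701, 704 and 645 CPM (0.42 ± 0.10, adjusted p = 0.00057, but -0.61 under identity scaling). Pecam1, the CD31 antigen used for selection, went from 407, 496 and 496 CPM to 1020, 953 and 959 CPM (1.07 ± 0.11, and 0.03 under identity scaling). Flt1, a decoy receptor of vascular endothelial growth factor, changed most, from 264, 366 and 350 CPM to 2641, 2313 and 2359 CPM (2.90 ± 0.13), followed by Egfl7 (2.16) and Emcn (1.97). Kdr, the signalling receptor of the same growth factor, was at 668, 821 and 793 CPM and then at 773, 674 and 662 CPM, overlapping groups with a difference of -0.11 ± 0.11 (adjusted p = 0.34, and -1.16 under identity scaling).

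Endothelial transcription factors were mostly higher under TMM, with 25 of 31 up and 1 down, and evenly split under identity scaling, with 13 up and 12 down. Of all genes, 13.8% were higher and 67.1% lower under identity scaling, which Erg and Fli1 of this list help to set. The SOXF factors, which overlap in function in vascular development, did not share a call. Sox17, intact in all of these animals, stood at 78.3, 85.5 and 108 CPM and then at 317, 298 and 274 CPM (1.71 ± 0.25, adjusted p = 2.1e-06, and 0.67 under identity scaling). Sox18 stood at 122, 154 and 79.6 CPM and then at 403, 346 and 356 CPM (1.63 ± 0.23, and 0.58). Sox7 had 64.8, 78.8 and 59.4 CPM and then 67.8, 69.9 and 59.2 CPM, with no call (-0.04 ± 0.11, adjusted p = 0.74), but it was called lower under identity scaling (-1.09) and in the summed steps within a kit (-0.38, adjusted p = 0.047). Per length, Sox18 was the highest of them at both stages (293 and 790 TPM). Sox7 and Sox17 were close at E15.5 (81.9 ± 12.3 and 75.6 ± 12.2 TPM, SD, n = 3) and apart in adults (69.1 ± 7.24 and 216 ± 20.5 TPM). Gata2, Tbx3, Epas1, the hypoxia-inducible factor of endothelium, and Nr3c1, the glucocorticoid receptor, had differences of 2.55, 2.53, 2.05 and 2.60 and were higher under both scalings.

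Wnt signalling genes showed no common direction. Of 19 Wnt targets 11 rose and 4 fell, and 3 rose and 12 fell under identity scaling. Of 21 receptors and effectors 9 rose and 9 fell, against 35.2% and 34.3% of all genes. Under identity scaling 1 rose and 15 fell, against 13.8% and 67.1% of all genes. Lef1, a nuclear effector and target, stood at 54.8, 58.3 and 43.4 CPM and then at 150, 148 and 135 CPM (1.46 ± 0.14, and 0.41 under identity scaling). Axin2, the feedback inhibitor often used as a readout, stood at 115, 133 and 84.5 CPM and then at 166, 136 and 139 CPM, a difference of 0.41 ± 0.15 (adjusted p = 0.016) that was -0.65 under identity scaling. Its call was lost without E15.5 library 3 (0.24, adjusted p = 0.13) or adult library 1 (0.31, adjusted p = 0.095), and in the summed steps within a kit (0.41, adjusted p = 0.098). Notum and Rnf43, secreted and membrane-bound feedback inhibitors, rose by 3.11 and 3.62. Myc, also on the Wnt target list, fell by 3.99 ± 0.19, the largest fall of that list. Among receptors and effectors, Reck, a coreceptor for Wnt7, rose by 2.19 ± 0.15, Fzd4, a frizzled receptor of brain vessels, by 1.31 ± 0.11 with no call under identity scaling (0.27), and Tcf7l2, a transcription factor of the pathway, fell by 2.19 ± 0.15.

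Other vascular pathways differed in their balance. TGF-beta and BMP genes rose in 16 of 24 cases and fell in 4 (14 and 8 under identity scaling), among them Tgfb2, a ligand, with 16.8, 22.7 and 19.3 CPM and then 122, 121 and 126 CPM (2.64 ± 0.11). The receptors Tgfbr3 and Acvrl1 rose by 2.99 and 2.14, and Ltbp4, which holds latent TGF-beta in the matrix, by 3.19. Of 18 Notch genes 5 rose and 6 fell, against 35.2% and 34.3% of all genes, and 1 rose and 15 fell under identity scaling, against 13.8% and 67.1%. The ligand Dll1 fell by 2.15 ± 0.16, and Lfng, which modifies Notch receptors, rose by 1.86 ± 0.18. Of 17 flow-responsive and vasomotor genes 13 rose and 2 fell (10 and 5 under identity scaling), among them Thbd, the anticoagulant receptor thrombomodulin, from 29.1, 37.3 and 33 CPM to 299, 308 and 301 CPM (3.18 ± 0.13), and Trpv4, a calcium channel, by 5.36 ± 0.29. Choroid plexus and ependymal markers rose in the same libraries, and the part of those cells in the rise of Trpv4 was not tested.

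Arterial and venous genes both rose more often than they fell, 16 against 4 of 24 and 10 against 4 of 16 (13 against 8 and 8 against 7 under identity scaling). Edn3, an endothelin on the arterial list, went from 1.24, 1.45 and 0.531 CPM to 91.3, 91.4 and 74.5 CPM (6.17 ± 0.24, adjusted p = 3.6e-16). Mgp, matrix Gla protein, rose by 5.10 ± 0.28. Glul and Clu, also on that list, rose by 3.11 and 4.77 and are made by astrocytes too, whose marker sum rose in the same libraries, and the part of astrocytes was not tested. On the venous list Vcam1, a leukocyte adhesion molecule, rose by 2.90 ± 0.23 and Lbp, a lipopolysaccharide-binding protein, by 2.83 ± 0.25.

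Basement membrane and matrix genes were more often lower than higher in adults. Of 30 genes, 17 fell and 9 rose (23 and 5 under identity scaling, where 67.1% of all genes were lower). Their summed level overlapped between the stages, at 16157, 19815 and 15881 CPM at E15.5 and 17370, 16856 and 17021 CPM in adults. Col4a1 (chromosome 8, 11198423 to 11312826), the core collagen of basement membranes, stood at 2756, 3228 and 2621 CPM and then at 918, 945 and 798 CPM (-1.69 ± 0.17, adjusted p = 6.9e-09). Lamb1, a laminin chain, stood at 350, 376 and 328 CPM and then at 37.7, 29.6 and 26.8 CPM (-3.48 ± 0.16). Nid1, which bridges laminin and collagen, and Col18a1, the source of endostatin, fell by 2.64 and 3.52. As with the cell cycle, the decline came late under TMM. The list's median was 1.37 from E15.5 to P5 and -1.77 from P9 to adult, and Col4a1 averaged 6822 CPM at P5. Pericyte markers followed the same course, with list medians of 1.57 and -2.59 for these steps, and pericytes deposit basement membrane as well. Their part in the matrix changes was not tested.

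Proteases and sprouting genes changed in opposite ways within their lists. Of 19 metalloproteases and inhibitors, 10 rose and 8 fell (5 and 10 under identity scaling). Mmp9 (chromosome 2, 164940780 to 164955850), a gelatinase, was at 450, 623 and 209 CPM in the embryo and at 0.683, 0.479 and 0.763 CPM in adults (-9.12 ± 0.51, adjusted p = 1.2e-13). Its inhibitor family member Timp3 went from 33.2, 37.4 and 29.9 CPM to 350, 341 and 342 CPM (3.36 ± 0.12). Mmp9, like the summed pericyte and fibroblast markers, was lowest at E15.5 in library 3. The part of those cells in the fall of Mmp9 was not tested. Of 25 tip cell and angiogenic genes, 12 fell and 8 rose (18 and 3 under identity scaling). Aplnr, the apelin receptor of sprouting and venous endothelium, stood at 195, 217 and 183 CPM and then at 23.1, 16.6 and 15.6 CPM (-3.42 ± 0.17), and Itga6, a laminin receptor subunit, rose by 2.17 ± 0.11. Of 30 genes of the axon guidance families, 18 fell and 9 rose (23 and 6 under identity scaling). Sema3f, a repulsive ligand of neuropilin 2, stood at 215, 177 and 222 CPM and then at 21, 17.9 and 21.9 CPM (-3.33 ± 0.17), and its receptors Nrp2 and Plxna1 fell by 2.09 and 2.56. Sema3c, a semaphorin of the same class, went from 8.2, 7.97 and 10.4 CPM to 297, 305 and 291 CPM (5.05 ± 0.22). Neurons also make semaphorins and plexins, their marker sum fell in the same libraries, and their part in the falls was not tested.

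Nearly all interferon response genes were higher in the adult. Of 28 interferon response genes 27 rose and 1 fell, with a median of 4.06, and 25 rose and 1 fell under identity scaling (median 3.09). Gbp2 (chromosome 3, 142620602 to 142638008), a guanylate-binding protein that attacks intracellular pathogens, stood at 1.9, 3.26 and 1.47 CPM at E15.5 and at 87, 91.5 and 80 CPM in adults (5.20 ± 0.30, adjusted p = 3e-13). Ly6e, a membrane protein that restricts viral entry, went from 62.4, 101 and 70.1 CPM to 1248, 1485 and 1363 CPM (4.13 ± 0.17). Ifi27 rose by 4.34 ± 0.16, and Irf1, a transcription factor induced by interferon gamma, by 3.75 ± 0.17. Under TMM the rise was spread over both steps within a kit, with list medians of 2.07 from E15.5 to P5 and 1.54 from P9 to adult. Step medians under identity scaling, which would weigh these steps differently, are not given here.

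Class I genes followed the same pattern. Of 20 class I and antigen processing genes, 18 rose and 1 fell (15 and 4 under identity scaling), with a median of 3.16. H2-D1, a classical heavy chain, stood at 94.5, 109 and 86.7 CPM and then at 722, 682 and 676 CPM (2.84 ± 0.13). Tap2, which moves peptides into the endoplasmic reticulum, and H2-T23, a nonclassical heavy chain, rose by 4.27 and 5.23. H2 genes are near-identical copies of each other, so single members are uncertain. Class II genes were scarce, with 5 of 6 higher and 1 lower. Cd74, the invariant chain, rose from at most 0.362 CPM to 3.19, 6.3 and 2.5 CPM, and H2-Aa had 0 and 45 counts, at least 16.8-fold higher in adults over the group. Microglia express interferon and class I genes too. Their marker sum of 33.4 to 45.8 CPM at E15.5 and 178 to 407 CPM in adults moved the same way, and their part in these rises was not tested.

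The Gbp2 promoter is shown because interferon-induced genes are often driven through the interferon-stimulated response element (ISRE), here searched as GAAA, any 2 bases and GAAA again, on both strands, and capitalised. The window and build are as above. This motif was chosen after the values were seen.
Gbp2 (chr3:142620513-142620662, plus strand): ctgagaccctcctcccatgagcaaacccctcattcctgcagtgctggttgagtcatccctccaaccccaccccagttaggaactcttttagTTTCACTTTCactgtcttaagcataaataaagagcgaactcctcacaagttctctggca
The match begins 59 bases before the start. Over 250 bases the motif was present in 12 of 26 promoters of the 22 listed genes with an entry (46.2%), against 2.98% of all 32851. Irf1 had no match to these letters in its windows.

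The same stage comparison in Sox17iECKO mice, made on other animals, called 11973 genes (69.8%). Of these, 10861 were also called in wild type, which is 91% of the wild-type and 90.7% of the knockout calls, and 10856 had the same sign. Across genes the stage differences of the genotypes correlated at Pearson's r = 0.973, where genes are not independent replicates. The difference between genotypes in the stage effect (the interaction) was called for 27 genes (0.157%), 8 higher and 19 lower in the knockout, and 674 genes had an unadjusted p under 0.05.

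Interferon genes were prominent among them. Of the 28 interferon response genes, 7 were called with a smaller stage difference in the knockout, and the value was below 0 in all 28. The list's median was -1.28, against 0.00 over all genes tested. All 28 values rest on the same libraries and are not independent results. The following 4 genes were picked after their values were seen. Isg15, a ubiquitin-like modifier, stood at 2.78, 4.11 and 0.943 CPM in E15.5 wild types and at 21.2, 23.3 and 16.3 CPM in E15.5 knockouts. Adults had 61, 82.5 and 69.1 CPM in wild types and 62.9, 66.4 and 53.9 CPM in knockouts. The stage difference was 4.70 ± 0.39 in wild type and 1.59 in the knockout. Irf7, the master regulator of type I interferon, rose by 5.30 in wild type and 3.19 in the knockout, Usp18, which removes Isg15 from proteins, by 4.25 and 1.64, and Bst2, tetherin, by 2.39 in wild type, against 0.43 in the knockout. The same E15.5 wild-type libraries enter the wild-type comparison and the interaction. No interaction was called when a difference above 1 on the log2 scale was required, 14 of the 27 calls held when the libraries of this contrast were fitted alone, and Irf7 was then at an adjusted p of 0.06.

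**Figure D5:**
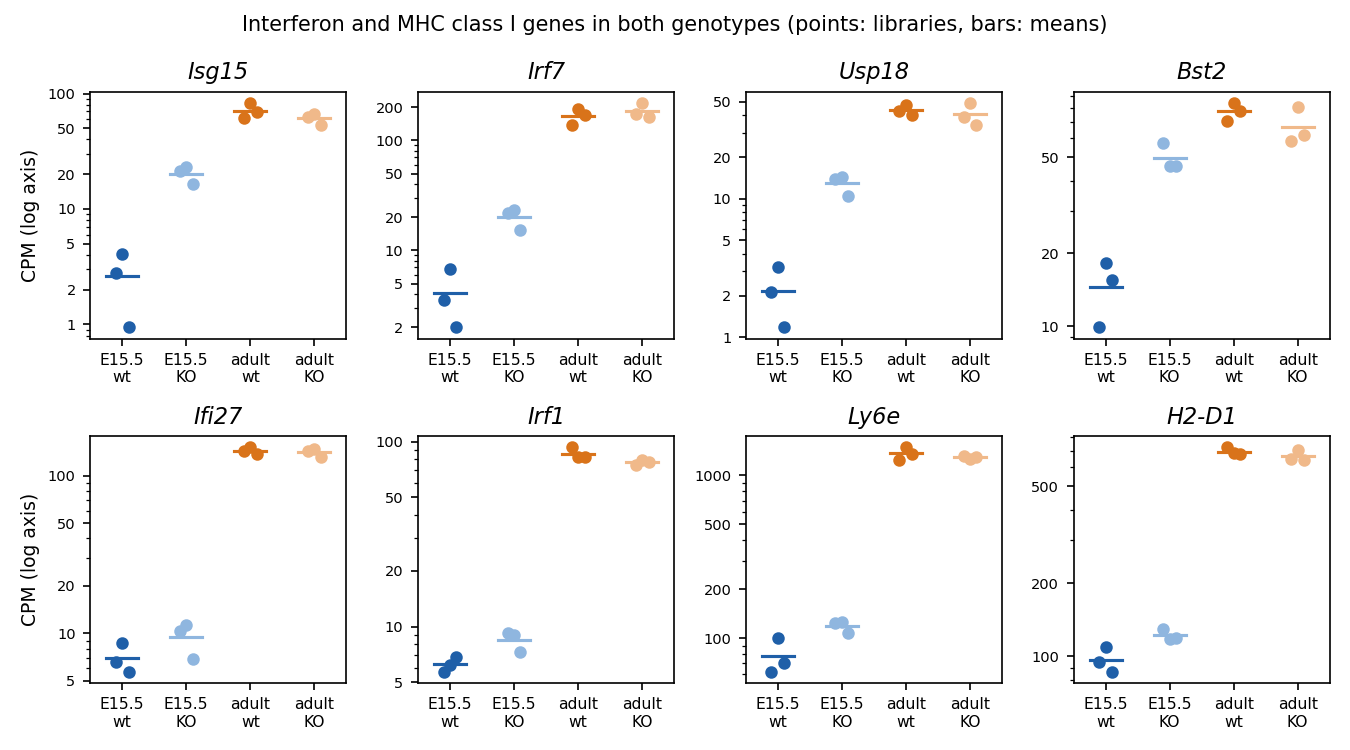
CPM on a log axis of 8 interferon and class I genes in wild-type and knockout libraries at E15.5 and adult, 1 point per library. Isg15 stands at 0.943 to 4.11 CPM in E15.5 wild types, 16.3 to 23.3 CPM in E15.5 knockouts and 53.9 to 82.5 CPM in the adult libraries of both genotypes.

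Inflammatory and haemostatic genes were less uniform. Of 19 adhesion and cytokine genes 12 rose and 1 fell (9 and 3 under identity scaling). Il33, a nuclear alarmin, went from 0.146, 0.181 and 0.0589 CPM to 96.3, 90.3 and 107 CPM (8.59 ± 0.39), of which 6.40 lay between P9 and adult, the step of the oligodendrocyte rise. Adult oligodendrocytes and astrocytes make Il33, and their part was not tested. Csf1, the growth factor of microglia and macrophages, rose by 2.65 ± 0.17 and had reached 109 CPM by P5. Of 18 haemostasis genes 10 rose and 6 fell (5 and 8 under identity scaling). Vwf, von Willebrand factor, stood at 264, 357 and 266 CPM and then at 510, 414 and 444 CPM (0.63 ± 0.15, but -0.42 under identity scaling), with a mean of 1513 CPM at P5. F2r, the thrombin receptor PAR1, fell by 3.81 ± 0.22, and F3, tissue factor, which astrocytes also express, rose by 4.98.

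Systemic and handling-related programmes were examined as well. Of 19 clock genes 15 rose and 2 fell (9 and 7 under identity scaling), with Nr1d1, the repressor REV-ERB alpha, at 6.74, 7.67 and 6.37 CPM and then at 76.9, 75.1 and 89.3 CPM (3.51 ± 0.16), and the labels give no time of day. Of 15 glucocorticoid-induced genes 10 rose and 2 fell (7 and 6 under identity scaling). Klf9 rose by 4.81 ± 0.18 and Fkbp5, an equally well-known target, fell by 2.98 ± 0.18. Of 22 immediate early and dissociation genes 7 rose and 8 fell, close to the 35.2% and 34.3% of all genes. Under identity scaling 4 of them rose and 15 fell, close to 13.8% and 67.1%. Their summed level was 2300 to 3200 CPM at E15.5 and 2753 to 2797 CPM in adults, within the embryonic range, against means of 10951 and 7221 CPM at P5 and P9. Egr1 and Fosb, transcription factors induced within minutes of stimulation, averaged 152 and 162 CPM at E15.5, 949 and 926 CPM at P5 and 47.6 and 25.4 CPM in adults.

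Metabolic and chromatin genes completed the lists. Of 26 hypoxia and glycolysis genes 10 rose and 5 fell, against 35.2% and 34.3% of all genes. Under identity scaling 4 rose and 18 fell, close to the 13.8% and 67.1% of all genes. Ndrg1, a hypoxia target, rose by 4.23 ± 0.26, of which 5.61 was gained from P9 to adult after a step of -1.33 to P5, and it too is made by oligodendrocytes, whose part was not tested. Of 26 cholesterol genes 13 rose and 3 fell, and 4 rose and 15 fell under identity scaling, against the same shares of all genes. Insig1 and Srebf1, which regulate cholesterol and lipid synthesis, rose by 1.57 and 1.94. Of 18 chromatin genes 14 fell and 1 rose (17 and 1 under identity scaling). Ezh2, the methyltransferase of Polycomb complex 2 in dividing cells, stood at 112, 104 and 130 CPM and then at 22.2, 18.7 and 16.5 CPM (-2.58 ± 0.15), and Ezh1, its counterpart in resting cells, at 56.9, 57 and 57.2 CPM and then at 164, 152 and 158 CPM (1.47 ± 0.09).

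By fold alone, myelin genes and an embryonic globin stood at the extremes. Of the 10 largest rises among genes averaging 50 or more counts in adults, Slco1a4 was the only one not known from oligodendrocytes or astrocytes. Mobp and Mog, myelin proteins, had 3 and 1 counts at E15.5 and 49462 and 25513 in adults, ratios of 18458 (95% counting interval 6316 to 89510) and 28563 (5126 to 1128227). At the other end, Hba-x, an embryonic alpha-type globin, had 5835 counts at E15.5 and 0 in adults, at least 1737-fold higher in the embryo over the group. Mmp9, H19, Igf2bp1 and Igf2bp3 were next on that side.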

How the data were processed

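Poly-A RNA of 24 libraries (4 stages, 2 genotypes, 3 replicates each) was sequenced strand-specifically on an Ion Proton instrument, per the labels' protocols. The authors deposited, per gene, raw counts of reads on 1 strand, with FPKM and TPM that were recomputed from those counts and the gene length to a relative deviation of at most 6.4e-14 and 2.3e-14. The submitters' processing notes name the mm10 build and, with no role given, SAMtools 1.5, STAR 2.5.3a, FastQC and Trim Galore 0.4.1. The annotation release is not given in the sources used here. The deposited counts were tested with edgeR 4.0.16 (quasi-likelihood, R 4.3.3) on all 24 libraries with 8 group means, TMM scaling, a prior count of 2 and 16 residual degrees of freedom. That prior count applies to the printed log2 differences. The standard error given with each is the absolute difference at edgeR's default prior count over the square root of the F statistic, and so is approximate. Of 45468 genes, 17159 were tested, those averaging 10 or more counts in any group, and adjusted p-values are Benjamini-Hochberg values over all of them. CPM are counts divided by the library total times its TMM factor and multiplied by 1000000, and TPM are the deposited values, used only to compare genes. Total counts of 12301779 to 15788644 per library set the precision, and counting intervals (95%) and limits for a count of 0 (3 counts) cover counting error only. Replicates of a group differed by more than sampling noise (chi-square per degree of freedom 5.93 to 39.6).

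The gene lists and the comparison were chosen with earlier results of these data known. Genes named are up to 10 rises and 10 falls of largest fold among called genes without overlap between groups, first among genes averaging 50 or more counts in the higher group and then among those averaging 1000 or more, up to 4 called members of smallest adjusted p per list, and 20 genes named in any case. Isg15, Irf7, Usp18, Bst2, Xist, Kdm5d, Kdr, Cav1, Cdkn1c and the claudins other than Cldn5 fall outside it and were chosen after their values were seen, as were the genes named only for the interaction. Dlk1, Fzd6, Meg3, Pdpn, Rian, Troy and a member of the barrier enzyme list, 7 genes in all, were listed but not matched to a symbol and are not analysed here. Some genes that this rule names are not reported here. Promoters are RefSeq windows on GRCm38.p6. Alternatives were other scalings, no low-count filter, a fold threshold (log2 1), a replicate block, the libraries of the contrast alone, DESeq2 1.42.0, limma 3.58.1, the summed steps within a kit, and leaving out each library. The scripts' tests were checked on simulated data.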

Additional observations from a re-analysis of the deposited data

Results flagged for a closer look

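The stage difference itself differed between genotypes for 11 genes of the interferon and red cell lists, by edgeR's test of the interaction (knockout minus wild type, log2). Of interferon response genes, it was lower in the knockout for Isg15 (-3.12 ± 0.49, adjusted p = 0.0034), Usp18 (-2.61), Ifi44 (-2.54), Irf7 (-2.10), Rtp4 (-2.10), Bst2 (-1.97) and Xaf1 (-1.64). These 7 were also called by DESeq2, 6 of them when the libraries of the contrast were fitted alone, 5 by limma, and none against a fold threshold of log2 1. Of red cell markers, it was higher in the knockout for Alas2 (2.01), Hbb-bt (1.85), Hbb-bs (1.81) and Hba-a2 (1.59), 4 of 11. Limma did not call Hba-a2 (adjusted p = 0.11), and none of these 4 was called against the fold threshold. Hbb-bs, adult beta globin, stood at 944, 1305 and 970 CPM in E15.5 wild types and at 189, 239 and 253 CPM in E15.5 knockouts. Adult wild types had 536, 508 and 587 CPM and adult knockouts 358, 445 and 408 CPM. Hba-x, the embryonic globin of the same list, was not called for the interaction and was not lower in E15.5 knockouts. It had 102, 131 and 135 CPM in E15.5 wild types and 114, 225 and 296 CPM in E15.5 knockouts. The part of red cell RNA in other results was not tested.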

How the results depend on the processing

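The count of 11937 called genes lay between 11188 and 11631 with 1 library left out (higher 5691 to 5936, lower 5469 to 5695), and 11009 to 11252 of the calls were shared with the same sign. It was 11952 with DESeq2's size factors, 12155 with no filter, 11379 with the libraries of the contrast alone, 11995 with limma and 11943 with the DESeq2 test. The sum of the steps within a kit called 8980 genes (4614 higher, 4366 lower), 8644 of them with the same sign as the direct comparison and 5 with the opposite one. A fold threshold of log2 1 left 5292 (2774 higher, 2518 lower), and 3977, 3372 and 5159 for P5 minus E15.5, adult minus P9 and the knockouts. Interaction calls, 27, became 124 with no filter, 0 with the fold threshold, 16 with the libraries of the contrast alone and 58 with DESeq2.

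No pairing by number was found: deviations of same-numbered libraries correlated at -0.06, -0.08 and -0.07. With the replicate block 11918 genes were called, and 38 interactions.

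Scaling to endothelial identity genes left 2370 genes higher and 11511 lower and reversed Axin2 (-0.65), Vwf (-0.42), Tfrc (-0.89), Mfsd2a (-0.78) and Cdh5 (-0.61). It also reversed the list medians of cell cycle inhibitors (-0.48), Wnt targets (-0.59), Wnt receptors (-0.88), junctions (-0.04), uptake and iron (-0.90), identity (-0.06), transcription factors (-0.04), metalloproteases (-0.36), haemostasis (-0.17), hypoxia (-0.83), cholesterol (-0.65) and other leukocytes (-0.28). Cdh5 and the identity list help to set this scaling, so their reversals are tied to it by construction. In the summed steps within a kit, Tfrc (-0.09) and the medians of hypoxia (-0.02), sex-linked (0.32), other leukocyte (-0.74) and peripheral endothelium genes (0.20) were reversed, and other leukocytes (-1.03) also with the contrast's libraries alone. With 1 library left out, Tfrc lay between -0.02 (without E15.5 replicate 1) and 0.25, Sox7 between -0.13 and 0.08 (above 0 without E15.5 replicate 2 or adult replicate 3), and without E15.5 replicate 3 the medians of Wnt receptors (-0.08 to 0.17 over all left-out libraries) and immediate early genes (-0.31 to 0.01) changed sign. Identity scaling shifted differences by a median of -1.04 on the log2 scale. The identity genes held 0.558, 0.719 and 0.657% of counts at E15.5 and 1.28, 1.18 and 1.16% in adults. The cause of the other sign changes was not tested.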

Other observations

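Mural and connective tissue markers did not move as one. Of 7 smooth muscle genes tested 4 rose and 2 fell. Myh11, smooth muscle myosin, went from 1.83, 1.87 and 1.12 CPM at E15.5 to 37.3, 31.8 and 33.9 CPM in adults (4.32 ± 0.25), and Acta2, smooth muscle actin, rose by 3.69 ± 0.28. Of 11 pericyte markers 9 fell and 1 rose. Abcc9, a potassium channel subunit, stood at 206, 270 and 71.9 CPM and then at 14.3, 14.4 and 21.4 CPM (-3.44 ± 0.39). Of 11 fibroblast and meningeal markers 6 fell and 1 rose. Col3a1, a fibrillar collagen, fell by 4.57 ± 0.38, and Ptgds, the prostaglandin D synthase of the meninges and of oligodendrocytes, went from 23.4, 33.6 and 19.5 CPM to 768, 756 and 884 CPM (4.97 ± 0.39).

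Of 12 neuron markers 9 fell and 1 rose. Neurod6, a factor of young cortical neurons, stood at 61.5, 40.2 and 108 CPM and then at 1.52, 2.39 and 1.11 CPM (-5.28 ± 0.45). Of 10 neural progenitor markers 3 rose and 4 fell, against 35.2% and 34.3% of all genes. Neurog2, a neurogenic factor, was down by 5.28 and Hopx, a marker of radial glia and astrocytes, was up by 2.81. All 10 astrocyte markers rose, Aqp4, the water channel of their endfeet, from 0.22, 0.785 and 0.118 CPM to 69.2, 79.3 and 94.9 CPM (7.33 ± 0.34). Of 7 oligodendrocyte precursor markers 4 rose and 1 fell, and of 13 microglia and macrophage markers 10 rose and 1 fell. All 9 ependymal and choroid plexus markers rose. Of 11 red cell markers 10 fell, and all 7 platelet markers fell. Of 5 other leukocyte markers tested Ptprc was called. Of 8 markers of peripheral and lymphatic endothelium 3 rose and 2 fell. Prox1, the lymphatic master factor, which neural cells also express, was among the rises (1.63 ± 0.20). Of 5 sex-linked genes tested none was called by edgeR.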
